A study of Mus musculus with 8 samples.

Results

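The SOCS, STAT and Pim genes described here form a loop of cytokine signalling: 4 SOCS family inhibitors (Socs1, Socs2, Socs3 and Cish), 4 signal transducers (Stat3, Stat5a, Stat5b and Stat6) and 2 kinases (Pim1 and Pim2). They were chosen by gene symbol, and their 10 symbols took in 24 probe sets among the 18193 genes with a probe set on the array. Expression was measured in CD4+ T cells of mice whose Foxp3 allele, wild type (WT) or a mutant named delta, carried an enhanced green fluorescent protein (EGFP) reporter. The EGFP-positive cells came from hemizygous males and were sorted by fluorescence. Labels gave 3 arrays of EGFP-positive cells for each allele and 1 array of EGFP-negative cells for each, 8 in all. All groups therefore share the reporter allele, and no array of untagged cells was analysed here. By the title of the study the mutant makes no functional Foxp3 protein; the sources used here do not give strain, age, pooling of animals or what delta changes in the allele. Nothing says that the arrays of a group came from separate mice, so p-values measure only the spread between these arrays, which may be technical.

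Cytokine receptors that use JAK kinases switch on STAT factors, which enter the nucleus and turn on genes, the SOCS family among them. SOCS proteins bind receptors or JAKs and lower the signal, which makes them feedback inhibitors; Cish and Socs2 are well-known targets of STAT5. Interleukin-2 acts through STAT5 in regulatory T cells, interleukin-6 through STAT3 and interleukin-4 through STAT6. Pim1 and Pim2 are serine/threonine kinases that are switched on at the transcript level by cytokines and promote survival and growth.

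Sequence around the start of transcription is shown for Cish and Socs3, because of the members searched they were the only ones whose window held a match to the STAT motif TTCNNNGAA, which reads the same on both strands. The windows are RefSeq sequence of GRCm38.p6, 300 bases long, and were found for 9 of the 10 members, all but Socs2. The Cish window (chr9:107296409-107296708, plus strand) and the Socs3 window (chr11:117969317-117969616, minus strand) are printed 5′ to 3′, with each match in capitals.
Cish: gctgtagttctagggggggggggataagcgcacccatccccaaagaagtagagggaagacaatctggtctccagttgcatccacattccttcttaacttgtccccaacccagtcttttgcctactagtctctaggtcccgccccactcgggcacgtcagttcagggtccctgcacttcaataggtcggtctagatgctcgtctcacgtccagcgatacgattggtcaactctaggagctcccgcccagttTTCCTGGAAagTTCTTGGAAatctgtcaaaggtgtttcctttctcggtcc
Socs3: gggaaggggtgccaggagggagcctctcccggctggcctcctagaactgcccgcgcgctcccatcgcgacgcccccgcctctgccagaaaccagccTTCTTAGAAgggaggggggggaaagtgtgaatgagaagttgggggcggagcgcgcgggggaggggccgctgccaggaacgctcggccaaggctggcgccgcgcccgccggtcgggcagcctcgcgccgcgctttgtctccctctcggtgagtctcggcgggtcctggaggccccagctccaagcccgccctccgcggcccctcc
The Cish window held 2 matches that do not overlap, TTCCTGGAA, which begins at the annotated start site, and TTCTTGGAA, 11 bases further on. The Socs3 window held 1 match, TTCTTAGAA, which begins 154 bases before the start site. Of 32851 mouse windows of this length, 2726 (8.3%) held the motif and 150 (0.457%) held it at least 2 times. The same motif with 1 more free base in its middle, in 2284 windows (6.95%), was in no window of the members. A match describes these letters and is not a measured binding site.

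The readings of Foxp3 went against its label. In arrays labelled WT EGFP-positive, its probe set read log2 4.75, 4.86 and 4.64, at percentiles 24.8 to 31.3 of the array. Mutant EGFP-positive arrays read 11.10, 11.51 and 11.21, and the EGFP-negative ones 4.52 (WT) and 6.14 (mutant). Where this probe set lies in relation to the reporter and the delta change is not given here, so it does not check the labels, and each direction below rests on them. CD4+ T cell markers were high in every array (5 of 7 measured; Cd4 at log2 11.07 to 11.42). The regulatory T cell list (6 of 6 measured, Foxp3 included) summed to a linear intensity of 12915 to 15701 in WT and 11496 to 15278 in mutant EGFP-positive arrays, against 1253 in the WT and 5310 in the mutant EGFP-negative array. Foxp3 added far more to the mutant than to the WT EGFP-positive sums, so their overlap does not describe the rest of the list. Between the EGFP-positive groups, Foxp3 was called higher in the mutant and 2 others of the list lower, Nrp1 (-1.39, limma adjusted p = 0.015) and Il2ra (-0.75, limma adjusted p = 0.012). Ikzf2 (-0.05), Tnfrsf18 (-0.12) and Ctla4 (-0.61) were not called. Ctla4 was called lower without WT replicate 2 (-1.34, limma adjusted p = 0.043), over alternatives of 0.007 to 0.91.

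Among the measured lists for other cells (NK, CD8 T, B, myeloid, dendritic and erythroid), only that of NK cells had genes called in any comparison. The NK cell list (3 of 4 measured) summed to a linear intensity of 200 to 235 in WT and 2208 to 2381 in mutant EGFP-positive arrays, with 357 and 1373 in the WT and mutant EGFP-negative arrays. Nkg7 (3.66, limma adjusted p = 1.4e-05) and Klrd1 (3.10, limma adjusted p = 4e-04) were higher in mutant than WT EGFP-positive arrays. Ncr1, the other measured gene of the list, read log2 5.10 to 5.57 in the EGFP-positive arrays, 5.37 in the WT and 6.41 in the mutant EGFP-negative array. The myeloid list (7 of 7) summed to 429 to 1272 in WT and 359 to 818 in mutant EGFP-positive arrays, and the CD8 T cell list (2 of 2) to 138 to 218 and 156 to 628. For both lists these ranges overlapped. In the WT and mutant EGFP-negative arrays the sums were 299 and 499 (myeloid) and 282 and 559 (CD8 T cell). The mean of 23 genes of handling stress and early activation (Fos, Jun, Dusp1 and others) was 10.49, 9.77 and 10.56 for WT and 10.02, 9.96 and 9.12 for mutant EGFP-positive cells. For EGFP-negative cells it was 9.9 (WT) and 9.59 (mutant). WT replicate 2 and mutant replicate 3 thus had the lowest mean of their groups (the low-stress arrays, a name that refers to this mean only). Genes of the list did not all follow it. Within their groups, Hspa1a, Hspa1b, Hspe1, Dnajb1, Egr2 and Egr3 were highest in WT replicate 2, and Egr1, Egr2, Egr3, Hspd1 and Hspe1 in mutant replicate 3. The part of these markers in the results was not tested, apart from the fits without these 2 arrays and with the stress mean as a covariate.

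Between the EGFP-positive groups, Pim2 was higher in the mutant, while Socs3, Stat5b and Stat6 were lower, each by 1.49 to 1.99 fold. These were 4 of the 10 genes, by limma's moderated test with Benjamini-Hochberg adjustment over 45037 probe sets and a threshold of 0.05. Of the 24 probe sets, 1 was higher and 7 were lower, against a background of 12.7% of all probe sets called (7.35% higher and 5.39% lower). That background takes in dim probe sets and those without a gene symbol, so it is not matched to the level of the members. The median difference of the 10 genes was -0.30 on the log2 scale, and that of all probe sets was -0.01. In bulk RNA, fewer cells with a transcript and less transcript per cell cannot be told apart. Each gene is given below by its probe set of highest mean level, in log2 intensity, and levels are compared between arrays and not between probe sets.

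**Figure D1:**
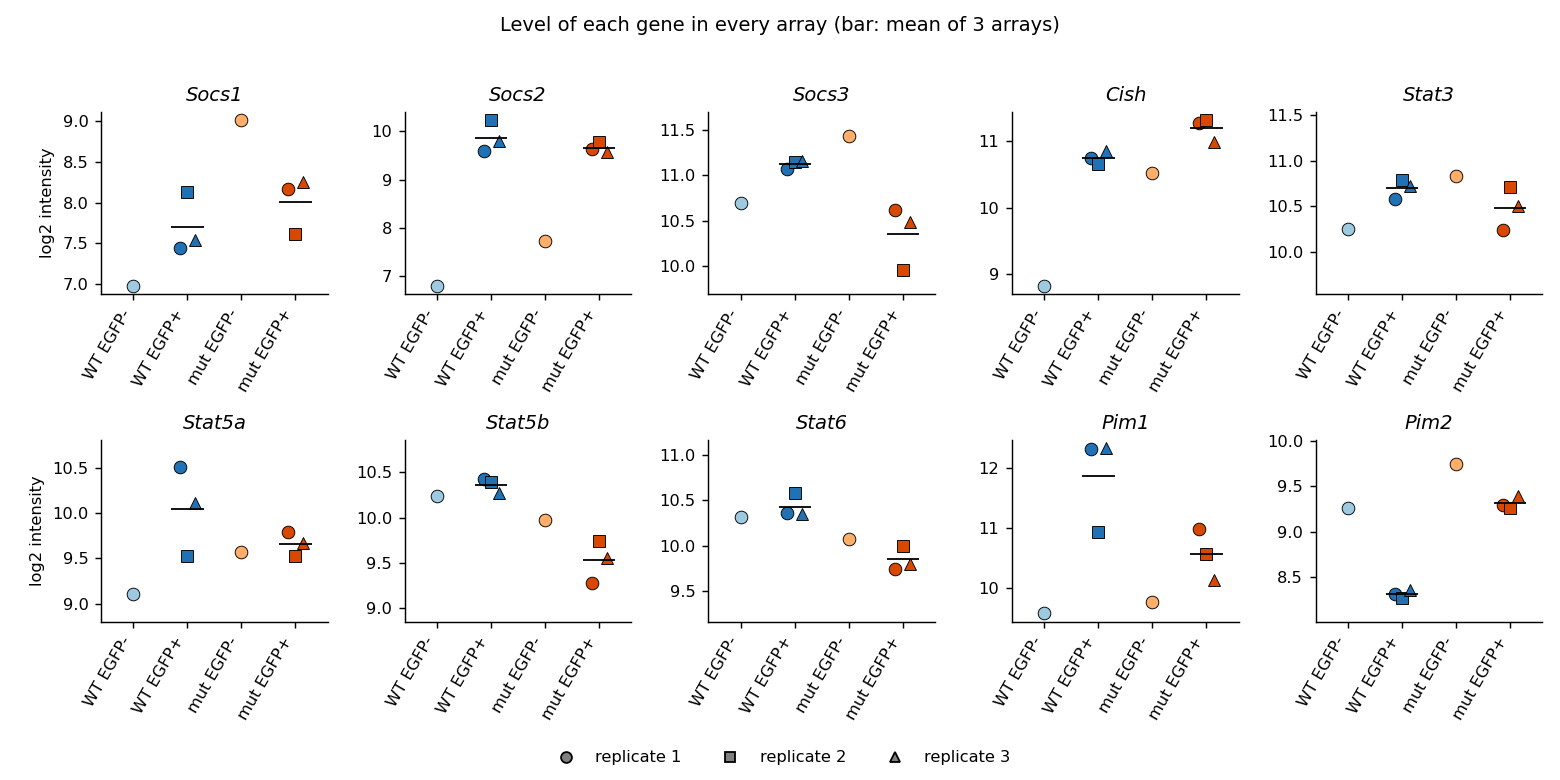
Log2 intensity of the main probe set of each of the 10 genes (vertical axis, own scale per panel, at least 2 log2 units) in the 8 arrays, grouped by allele and EGFP; a point is 1 array, its shape the replicate, and bars are means of 3 arrays. Pim2 lies lowest in the 3 WT EGFP-positive arrays (8.28 to 8.36), and Socs2 and Cish are lowest in the WT EGFP-negative array (6.80 and 8.83).

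Socs3 (1455899_x_at), the SOCS protein best known for restraining interleukin-6 receptors and STAT3, read 11.07, 11.15 and 11.16 in WT EGFP-positive arrays and 10.62, 9.96 and 10.48 in mutant ones. The groups did not overlap, and the mutant arrays spread more (SD 0.35 against 0.05, n = 3 each). Socs3 was 1.71-fold lower in the mutant, a difference of -0.77 ± 0.18 (SE; limma adjusted p = 0.026). Both of its other probe sets gave the same direction with no overlap, 1416576_at at -0.84 ± 0.13 (limma adjusted p = 0.0056) and 1456212_x_at at -0.95 ± 0.15 (limma adjusted p = 0.006). The call on the main probe set was lost without WT replicate 1 (limma adjusted p = 0.076), without WT replicate 3 (0.086) and with the stress covariate (0.066), at differences of -0.84 to -0.75; over all alternatives the adjusted p ran from 0.0028 to 0.086.

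Cish (1448724_at), a STAT5-induced inhibitor that acts at the interleukin-2 receptor, read 10.75, 10.64 and 10.84 in WT EGFP-positive arrays and 11.26, 11.30 and 10.98 in mutant ones. Every mutant array lay above every WT array, yet the difference of 0.44 ± 0.13 (SE) missed the threshold (limma adjusted p = 0.065). It passed without mutant replicate 3 (0.54, limma adjusted p = 0.044) and with the stress covariate (0.60, limma adjusted p = 0.038). Across its alternatives the adjusted p ran from 0.032 to 0.2, always with the mutant higher.

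Socs1 (1450446_a_at), which inhibits JAK kinases directly and is strongly induced by interferon-gamma, read 7.45, 8.13 and 7.54 in WT and 8.17, 7.61 and 8.25 in mutant EGFP-positive arrays. The groups overlapped, and the difference of 0.31 ± 0.23 (SE) was not called (limma adjusted p = 0.5). Socs2 (1449109_at), a STAT5 target known for growth hormone control, read 9.58, 10.22 and 9.79 in WT and 9.64, 9.78 and 9.57 in mutant EGFP-positive arrays. Here too the groups overlapped (-0.20 ± 0.17, SE; limma adjusted p = 0.56). Of the 6 Socs2 probe sets, 5 were not called (-0.23 to 0.00), and 1, 1438470_at, was lower in the mutant. That probe set read 5.83, 6.14 and 5.93 against 4.96, 5.32 and 5.02 (-0.87 ± 0.14, SE; limma adjusted p = 0.0071). Its mean level lay at the 42.5th percentile of all probe sets, so the probe sets of Socs2 disagreed, and the 2 bright ones (86.8th and 79.5th percentile) were not called.

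Among the transducers, Stat5b and Stat6 were lower in the mutant, and Stat5a and Stat3 were not called. Stat5b (1422103_a_at) read 10.43, 10.39 and 10.27 in WT and 9.28, 9.74 and 9.56 in mutant EGFP-positive arrays. Without overlap between the groups, it was 1.78-fold lower in the mutant (-0.83 ± 0.14, SE; limma adjusted p = 0.0079). The call held in all 17 alternatives, with differences of -0.94 to -0.67 and adjusted p of 0.0037 to 0.037. Its other probe set, 1422102_a_at, read lower in each mutant array as well (-0.50 ± 0.14, SE) but missed the threshold (limma adjusted p = 0.064).

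Stat5a (1421469_a_at) encodes the close relative of Stat5b, and both lie next to Stat3 in the RefSeq annotation, with no other gene between the 3. It read 10.50, 9.53 and 10.10 in WT and 9.79, 9.53 and 9.67 in mutant EGFP-positive arrays. WT replicate 2 was as low as the lowest mutant array, and the difference of -0.38 ± 0.23 (SE) was not called (limma adjusted p = 0.38). Without that array the difference was -0.64 (limma adjusted p = 0.032), while with the stress covariate and every array kept it was not called; over all alternatives the adjusted p ran from 0.032 to 0.85. The second Stat5a probe set, 1450259_a_at, had a difference of -0.44 ± 0.21 (SE; limma adjusted p = 0.26).

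Stat6 (1426353_at), which carries the interleukin-4 signal, read 10.36, 10.58 and 10.35 in WT and 9.75, 10 and 9.80 in mutant EGFP-positive arrays. The groups did not overlap, and Stat6 was 1.49-fold lower in the mutant (-0.58 ± 0.12, SE; limma adjusted p = 0.02). Its other probe set gave -0.54 ± 0.11 (SE; limma adjusted p = 0.018). The call on the main probe set was lost without WT replicate 1 (limma adjusted p = 0.055), mutant replicate 1 (0.08), mutant replicate 3 (0.063) or both low-stress arrays (0.07), and with the stress covariate (0.058), with differences of -0.63 to -0.48; over all alternatives the adjusted p ran from 0.0071 to 0.08.

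Stat3 (1426587_a_at), the transducer of interleukin-6, read 10.58, 10.79 and 10.72 in WT and 10.24, 10.71 and 10.51 in mutant EGFP-positive arrays. These overlapped (-0.21 ± 0.14, SE; limma adjusted p = 0.44), and none of its 4 probe sets was called at differences of -0.78 to -0.13. The probe set 1459961_a_at stood apart, with 9.77, 7.92 and 9.54 in WT and 8.38, 8.35 and 8.17 in mutant EGFP-positive arrays. WT replicate 2 lay below all mutant arrays there, and without it the difference was -1.36 (limma adjusted p = 0.00079) in place of -0.78 (limma adjusted p = 0.33).

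**Figure D2:**
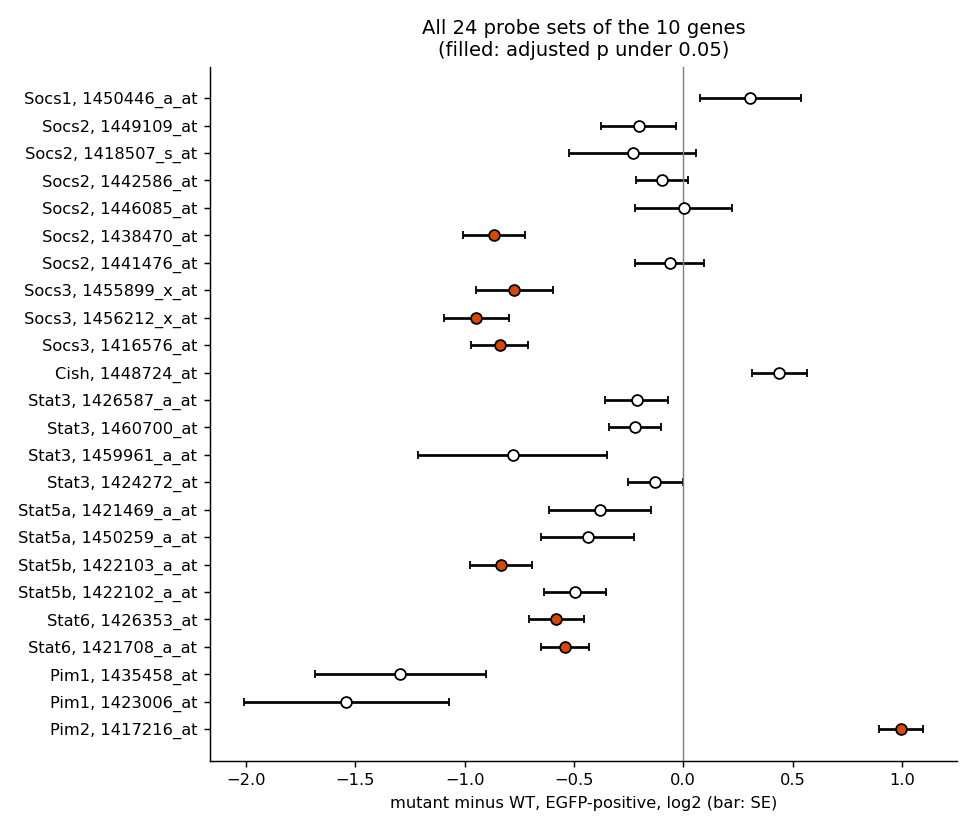
Difference of mutant from WT EGFP-positive arrays on the log2 scale (horizontal axis; bars are SE of the limma fit) for the 24 probe sets of the 10 genes. Filled points passed an adjusted p of 0.05: all 3 of Socs3, both of Stat6, 1 of 2 of Stat5b, 1 of 6 of Socs2 and the 1 of Pim2, which alone is to the right.

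The kinases Pim1 and Pim2 lay on opposite sides. Pim2 (1417216_at) read 8.32, 8.28 and 8.36 in WT EGFP-positive arrays and 9.29, 9.26 and 9.39 in mutant ones. The difference of 0.996 ± 0.10 (SE), a 1.99-fold higher level in the mutant, was many times the spread between replicates (SD 0.04 and 0.07, n = 3 each; limma adjusted p = 0.00089). It was called in all 17 alternatives (0.94 to 1.02; adjusted p of 0.00022 to 0.0069).

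Pim1 (1435458_at) read 12.30, 10.93 and 12.33 in WT EGFP-positive arrays and 10.98, 10.56 and 10.13 in mutant ones. WT replicates 1 and 3 were the highest of all arrays, whereas WT replicate 2 lay within the mutant range. The difference of -1.29 ± 0.39 (SE) was not called (limma adjusted p = 0.073), nor was that of the second probe set, 1423006_at (-1.54 ± 0.47, SE; limma adjusted p = 0.075). Without WT replicate 2 the difference was -1.76 (limma adjusted p = 0.0023), and without that array and mutant replicate 3 it was -1.54 (limma adjusted p = 0.001). With the stress mean as a covariate and every array kept it was -0.59 (limma adjusted p = 0.23), the highest adjusted p over its alternatives. Pim3, named after its values were seen, read 11.04, 9.36 and 11.31 in WT and 10.26, 10.17 and 9.27 in mutant EGFP-positive arrays, low in the same 2 arrays.

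**Figure D3:**
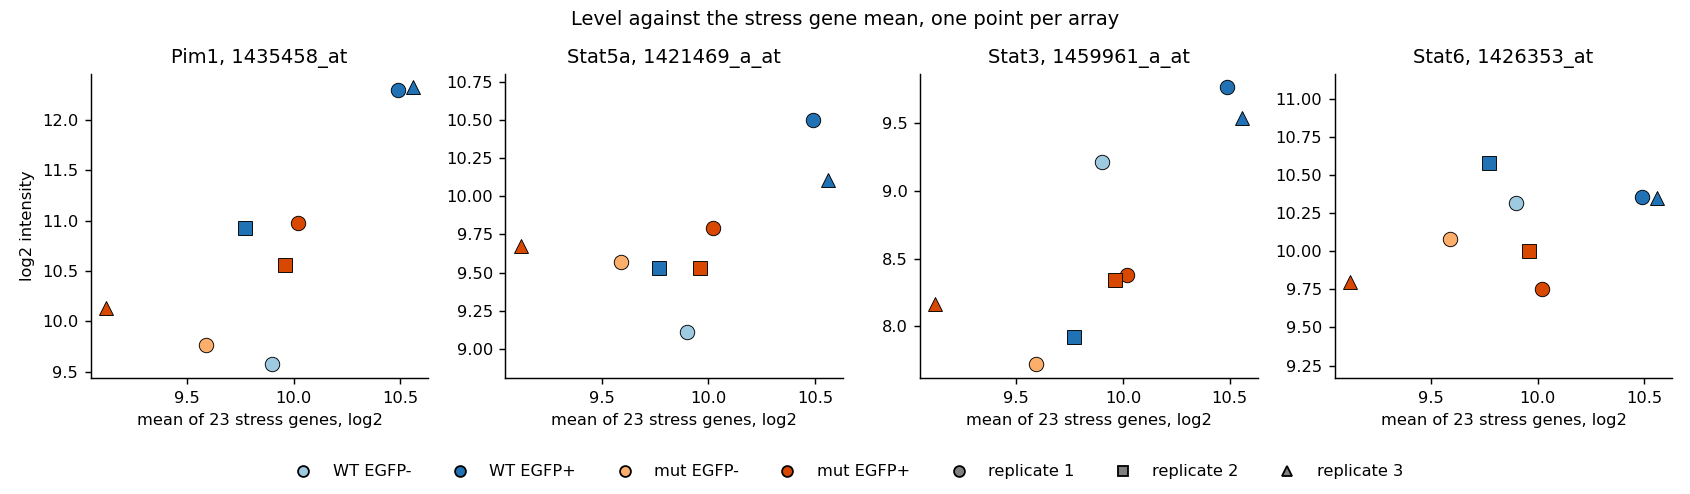
Log2 intensity (vertical axis, at least 2 log2 units) of 4 probe sets against the mean of the 23 stress and early activation genes (horizontal axis), 1 point per array, coloured by group and shaped by replicate. For Pim1 and Stat3 1459961_a_at, WT EGFP-positive replicate 2 (stress mean 9.77) lies far below replicates 1 and 3 (10.49 and 10.56), while the 3 Stat6 readings of that group lie between 10.35 and 10.58. This Stat3 probe set was picked for the largest spread in that group. Mutant EGFP-positive replicate 3 (stress mean 9.12) reads 8.17 there, against 8.38 and 8.35 in replicates 1 and 2.

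EGFP-positive cells were set against EGFP-negative cells within each allele to ask how these genes differ with Foxp3 reporter expression. With 1 EGFP-negative array per allele, the test takes its spread from the EGFP-positive groups and assumes that a single array varies like them. Both EGFP-negative arrays carry the same leading title number as replicate 1 of the EGFP-positive groups, so the readings of replicate 1 give the comparison within that number. These comparisons and the one above share the same EGFP-positive arrays, so they are not independent of each other. For the WT allele, 3 of the 10 genes were called, Socs2 and Cish higher and Pim2 lower in EGFP-positive cells, against 1.1% of all probe sets (0.706% higher and 0.395% lower). Over the 24 probe sets, 3 were higher and 1 was lower.

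Socs2 read 6.80 in the WT EGFP-negative array against 9.58 to 10.22 in the WT EGFP-positive arrays, 8.37-fold higher (3.07 ± 0.24, SE; limma adjusted p = 0.0026). It had the widest span of the 10 genes over the 4 group means, 3.07 log2 units. The other bright probe set, 1418507_s_at, gave 3.08 ± 0.41 (SE; limma adjusted p = 0.016) and lost its call without mutant replicate 1 (0.051) and with the title number as a block (0.061). The main one was called in all 16 alternatives (1.47 to 3.21; adjusted p of 0.00046 to 0.034). The lowest of these differences, 1.47, came from the mean over all 6 Socs2 probe sets. Cish read 8.83 in the WT EGFP-negative array, so that its WT EGFP-positive arrays were 3.77-fold higher (1.91 ± 0.18, SE; limma adjusted p = 0.0045). Pim2, in contrast, read 9.26 in the WT EGFP-negative array and was 1.93-fold lower in the EGFP-positive arrays (-0.95 ± 0.14, SE; limma adjusted p = 0.027). That call was lost without any 1 of the 5 EGFP-positive arrays other than WT replicate 2 (limma adjusted p of 0.052 to 0.086) and with the stress covariate (0.06), while the difference stayed between -0.97 and -0.91; over all its alternatives the adjusted p ran from 0.008 to 0.17.

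The other 7 genes were not called for the WT allele. Pim1 read 9.57 in the EGFP-negative array and higher in each EGFP-positive array (2.28 ± 0.55, SE; limma adjusted p = 0.16). Without WT replicate 2 that difference was 2.74 (limma adjusted p = 0.0058), and with the stress covariate 1.82 (limma adjusted p = 0.045), over alternatives of 0.00091 to 0.36. Stat5a, at 9.11 in the EGFP-negative array, differed by 0.94 ± 0.33 (SE; limma adjusted p = 0.39), or by 1.20 without WT replicate 2 (limma adjusted p = 0.032). Socs1 (0.72), Socs3 (0.43), Stat3 (0.45), Stat5b (0.13) and Stat6 (0.12) had smaller differences, with limma adjusted p of 0.57 to 0.92.

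For the mutant allele, none of the 10 genes was called by limma between EGFP-positive and EGFP-negative cells, while 5 of 10 (2 higher and 3 lower) had an unadjusted p under 0.05, as had 9.73% of all probe sets. The background of adjusted calls was 0.0755% of all probe sets (0.0178% higher and 0.0577% lower). Socs2 came nearest, with 7.72 in the mutant EGFP-negative array against 9.57 to 9.78 in the EGFP-positive arrays (1.94 ± 0.24, SE; limma adjusted p = 0.056). It was called without WT replicate 2 (limma adjusted p = 0.015), over alternatives of 0.014 to 0.34. Cish read 10.51 in the mutant EGFP-negative array and was higher in each EGFP-positive array (0.67 ± 0.18, SE; limma adjusted p = 0.29). Pim1 (0.79 ± 0.55, SE; limma adjusted p = 0.72) and Pim2 (-0.43 ± 0.14, SE; limma adjusted p = 0.39) kept the sign they had for the WT allele.

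The main probe sets of 5 genes had opposite signs for the alleles: Socs1 and Socs3, and by smaller values Stat3 (0.45 for WT and -0.35 for the mutant), Stat5b (0.13 and -0.45) and Stat6 (0.12 and -0.23). The second probe sets of Stat5b and Stat6 had the same signs. No other Stat3 probe set did (1460700_at at -0.07 for WT and -0.25 for the mutant, 1424272_at at 0.07 and 0.18, 1459961_a_at at -0.14 and 0.58). Socs1 read 9.01 in the mutant EGFP-negative array, above all EGFP-positive arrays of that allele (-0.995 ± 0.33, SE; limma adjusted p = 0.39), whereas for WT the EGFP-negative array, at 6.98, was the lowest. Socs3 read 11.43 in the mutant EGFP-negative array, its highest reading, against 9.96 to 10.62 in the EGFP-positive arrays (-1.08 ± 0.25, SE; limma adjusted p = 0.25). All 3 Socs3 probe sets gave these signs, though the mutant EGFP-negative reading of 1456212_x_at (9.94) was not its highest. The interaction of allele and EGFP, which tests whether the EGFP difference depends on the allele, was -1.72 ± 0.46 for Socs1 (SE; limma adjusted p = 0.53) and -1.51 ± 0.35 for Socs3 (SE; limma adjusted p = 0.41). The dimmer Socs3 probe set 1416576_at had -1.80 ± 0.26 (SE; limma adjusted p = 0.1).

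No member was called for the interaction by limma (background 0.04% of all probe sets, 0.0155% higher and 0.0244% lower), while 6 of 10 genes had an unadjusted p under 0.05, 5 with a negative and 1 with a positive value, as had 6.14% of all probe sets. The median interaction was -0.98 for the 10 genes, against 0.01 for all probe sets. The interaction was negative for 9 of the 10 genes and positive for Pim2 (0.51 ± 0.20, SE; limma adjusted p = 0.77). It compares 2 single EGFP-negative arrays, so 1 array of them moves all 10 values together. Without WT replicate 2 and mutant replicate 3 together, 2 probe sets were called, 1423006_at of Pim1 and 1450259_a_at of Stat5a (-1.84, limma adjusted p = 0.047).

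**Figure D4:**
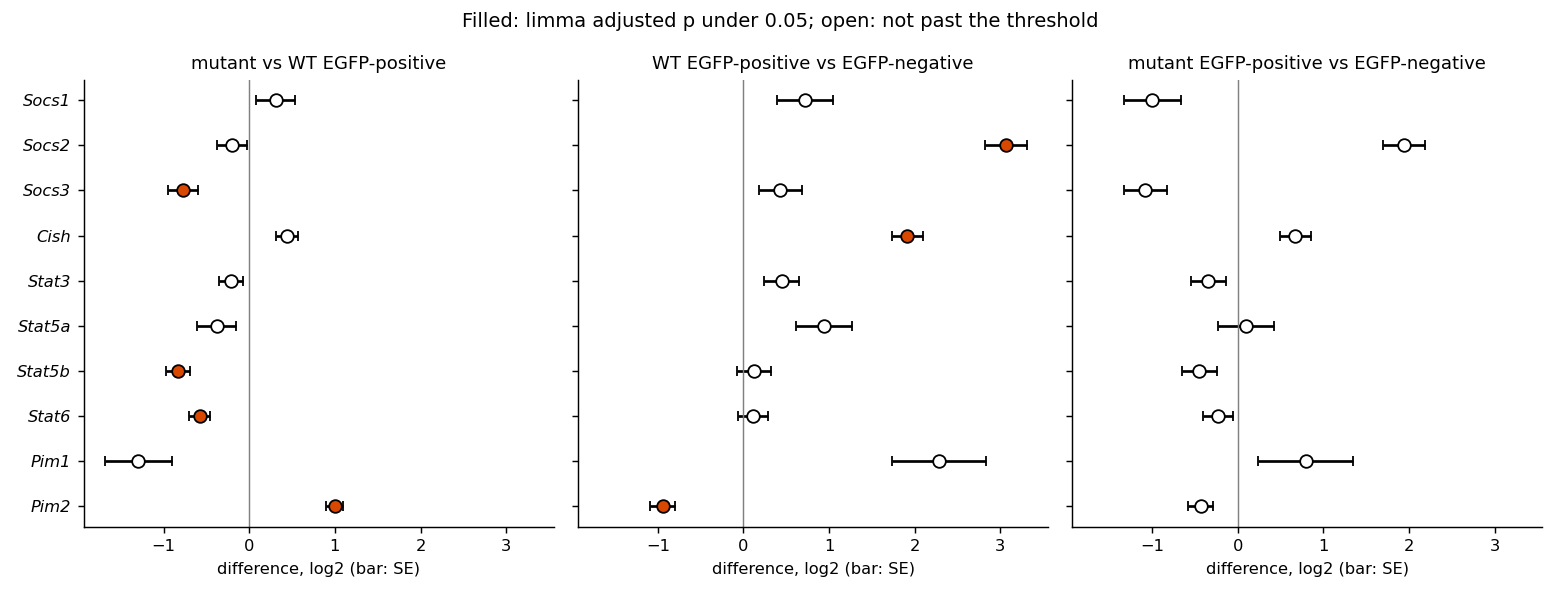
Differences on the log2 scale (horizontal axis, same scale in all panels; bars are SE of the limma fit) of the main probe set of each gene in 3 comparisons; filled points passed an adjusted p of 0.05. Socs2 is the farthest to the right in both comparisons of EGFP-positive with EGFP-negative cells (3.07 and 1.94), and Socs1, Socs3, Stat3, Stat5b and Stat6 lie right of 0 for WT and left of 0 for the mutant.

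The 2 EGFP-negative arrays were compared by value only, with no replicate check. Socs1 was 2.02 log2 units higher in the mutant EGFP-negative array than in the WT one (9.01 against 6.98), and Cish 1.68 units higher (10.51 against 8.83). These were the 2 of 10 genes past a 2-fold difference, and 4.53% of all probe sets were past it (2.82% higher and 1.72% lower). The median of the 10 genes was 0.53, against -0.01 for all probe sets. Socs2 (0.92), Socs3 (0.74), Stat3 (0.58), Pim2 (0.48), Stat5a (0.46) and Pim1 (0.20) were also higher in the mutant array, and Stat5b (-0.26) and Stat6 (-0.24) lower. Among other probe sets, 1450259_a_at of Stat5a was past 2-fold upwards (1.09) and 1459961_a_at of Stat3 downwards (-1.50).

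The order of the 4 groups thus differed between the genes. Socs2 was highest in WT EGFP-positive, followed by mutant EGFP-positive cells, which overlapped, and then by mutant and WT EGFP-negative cells. For Cish the order was mutant EGFP-positive, WT EGFP-positive, mutant EGFP-negative and WT EGFP-negative, of which the first 2 did not differ past the threshold. Pim2 ran from mutant EGFP-negative (9.75) over mutant EGFP-positive (mean 9.31) and WT EGFP-negative (9.26) down to WT EGFP-positive (mean 8.32), and the last was lower than each of the 2 groups before it. Pim1 and Stat5a ran from WT EGFP-positive (means 11.85 and 10.05) over mutant EGFP-positive (10.56 and 9.66) and mutant EGFP-negative (9.77 and 9.57) to WT EGFP-negative (9.57 and 9.11), with none of the tested neighbours called. Socs1 and Socs3 were highest in the mutant EGFP-negative array, Socs1 followed by mutant (mean 8.01) and WT EGFP-positive (7.70) and Socs3 by WT EGFP-positive (11.13) and WT EGFP-negative (10.69) arrays. Stat3 spanned 0.58 units, from 10.83 in the mutant to 10.25 in the WT EGFP-negative array. Stat5b and Stat6 had their highest group mean in WT EGFP-positive and their lowest in mutant EGFP-positive cells, over narrow spans of 0.83 and 0.58 units.

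The surrounding pathway was described with lists of its other genes, each gene by its probe set of highest mean. The background between the EGFP-positive groups was 12.7% of all probe sets called (7.35% higher and 5.39% lower). It covers every probe set, dim ones included, and not only the brightest of each gene. Of 4 JAK kinases, Jak2 was higher in mutant than WT EGFP-positive arrays (0.59 ± 0.13, SE; limma adjusted p = 0.022) and Jak1 lower (-0.66 ± 0.13, SE; limma adjusted p = 0.016). Each was called in 12 and 11 of 16 alternatives respectively. Neither of the 2 measured genes among 3 other STAT factors was called by limma (1 had an unadjusted p under 0.05, as had 24.9% of all probe sets). Stat4, the interleukin-12 transducer, differed by 0.45 (limma adjusted p = 0.14) and Stat2 by -0.15 (limma adjusted p = 0.72). Of Socs4, Socs5, Socs6, Socs7 and Pim3, 0 were called by limma and 0 had an unadjusted p under 0.05, with a median difference of -0.23; Socs5 differed by -0.31 (limma adjusted p = 0.22) and Socs6 by -0.23 (limma adjusted p = 0.3).

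Among 12 other brakes on JAK-STAT signalling, 1 was higher and 2 were lower in the mutant (7.35% and 5.39% of all probe sets). An unadjusted limma p under 0.05 was found for 33.3% of this list and 24.9% of all probe sets. Ptpn11, the phosphatase SHP2, rose by 1.03 ± 0.12 (SE; limma adjusted p = 0.0014), though its other probe sets gave 0.01 and 0.76. Cbl, a ubiquitin ligase, fell by 1.004 (log2; limma adjusted p = 0.00094), and Pias1, a STAT inhibitor, by 0.57 (limma adjusted p = 0.029). Ptpn11 and Cbl were called in all 16 alternatives and Pias1 in 12.

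Of 18 measured receptor subunits, 7 were lower and 2 higher in the mutant (5.39% and 7.35% of all probe sets), with a median difference of -0.58. Il6ra, which binds interleukin-6, read 9.89, 10.19 and 10.05 in WT and 7.90, 7.20 and 7.49 in mutant EGFP-positive arrays. It was the member of this list that differed most (-2.51 ± 0.18, SE; limma adjusted p = 0.00025), and its other probe set gave -1.29. Il6st, the shared signalling chain gp130, fell by 1.36 (log2; limma adjusted p = 0.013) and Ifngr2, of the interferon-gamma receptor, by 1.23 (limma adjusted p = 0.01). Il12rb1, of the interleukin-12 receptor, rose by 1.14 ± 0.15 (SE; limma adjusted p = 0.0028). The count was 4 lower and 1 higher with the stress covariate or without WT replicate 1, and 3 lower and 1 higher without mutant replicate 1.

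Cytokine genes differed in the other direction. Of 15 measured, 7 were higher in mutant EGFP-positive arrays (7.35% of all probe sets) and 8 were not called, with a median difference of 1.07. Il4 rose by 5.01 ± 0.11 (SE; limma adjusted p = 3e-06), Ifng by 4.05 ± 0.35 (SE; limma adjusted p = 0.00045), Il21 by 3.67 ± 0.12 (SE; limma adjusted p = 1.4e-05; its other probe set by 0.07) and Lif by 2.49 ± 0.26 (SE; limma adjusted p = 0.00092). Il4 is the ligand whose signal Stat6 carries, and it read 4.65 to 4.84 in WT and 9.66 to 9.85 in mutant EGFP-positive arrays.

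Of 15 further STAT5 target genes, 3 were higher and 2 lower in the mutant (7.35% and 5.39% of all probe sets). Gzmb, the cytotoxic protease granzyme B, rose by 4.69 ± 0.12 (SE; limma adjusted p = 6.9e-06). Id2 rose by 1.69 ± 0.24 (SE; limma adjusted p = 0.0037) and Prf1, the pore protein perforin, by 1.31 ± 0.23 (SE; limma adjusted p = 0.0096), with the other Prf1 probe set at -0.46. Gzmb and the main Prf1 probe set were higher in the mutant, as was the NK cell list given above, and the part of such cells was not tested. In WT cells the sums of that list were lower in EGFP-positive arrays (200 to 235 against 357), while Gzmb was higher there (2.29). Prf1 read 6.55, 7.06 and 6.22 in those arrays against 8.02 in the WT EGFP-negative one. That difference was not called (-1.41, limma adjusted p = 0.14), but it was without WT replicate 2 (-1.64, limma adjusted p = 0.019). Il2ra, the interleukin-2 receptor alpha chain, fell by 0.75 ± 0.14 (SE; limma adjusted p = 0.012) and Ltb, a TNF family cytokine chain, by 0.43 (limma adjusted p = 0.043). Ltb, named because 2 genes were lower, was called in 6 of 16 alternatives and lost without any 1 EGFP-positive array (limma adjusted p of 0.061 to 0.12). None of the 15 was called lower without WT replicate 1, without mutant replicate 1 or with the stress covariate, where Il2ra had a limma adjusted p of 0.051 to 0.054.

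Pim kinase substrates split evenly, with 3 of 11 higher and 3 lower in the mutant (7.35% and 5.39% of all probe sets). Cdc25c, a phosphatase that starts mitosis, rose by 2.15 ± 0.18 (SE; limma adjusted p = 0.00035). All 11 measured genes of a cell cycle list were also higher (median 2.76). Foxo1 fell by 1.81 (log2; limma adjusted p = 0.00025), the cell cycle inhibitor Cdkn1b by 1.37 (limma adjusted p = 0.0023) and Foxo3 by 1.36 (limma adjusted p = 0.00056). The other probe sets of the FOXO factors disagreed. They ranged from -1.72 to 0.02 for Foxo1 (3 others) and from -1.33 to -0.15 for Foxo3 (2 others).

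**Figure D5:**
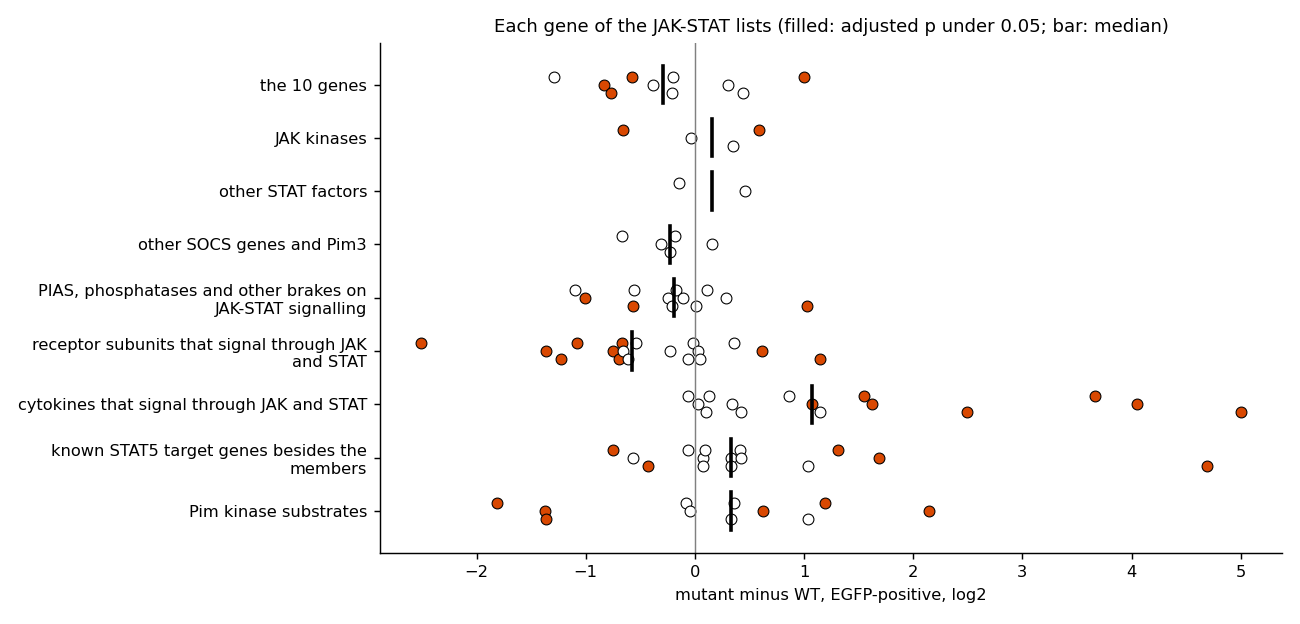
Difference of mutant from WT EGFP-positive arrays on the log2 scale (horizontal axis) for the main probe set of each gene of the 10 and of 8 further lists (rows; height within a row has no meaning); filled points passed a limma adjusted p of 0.05 and bars are medians. Receptor subunits lie mostly left of 0 (median -0.58) and cytokines right of it (median 1.07), while the 10 genes span -1.29 to 0.996.

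In WT cells, the interleukin-2 receptor differed with EGFP together with Socs2 and Cish. Il2ra read 5.38 in the WT EGFP-negative array and 9.995, 10.02 and 9.82 in EGFP-positive arrays (4.56 ± 0.20, SE; limma adjusted p = 0.00048). Il2rb, the beta chain that recruits STAT5, read 8.32 against 10.89, 11.53 and 10.75 (2.74 ± 0.30, SE; limma adjusted p = 0.0077). These were the 2 of 18 receptor subunits called there, against 1.1% of all probe sets (0.706% higher and 0.395% lower). Of the further STAT5 targets, 3 of 15 were higher in WT EGFP-positive arrays, Il2ra, Tnfrsf4 (3.41 ± 0.19, SE; limma adjusted p = 0.00092) and Gzmb (2.29 ± 0.17, SE; limma adjusted p = 0.0022). Among cytokines, Il4 (-1.34) and Il21 (-1.28) were lower, with limma adjusted p of 0.0095 and 0.015. With the title number as a block neither was called (limma adjusted p of 0.11 and 0.14).

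For the mutant allele, Il2ra was the only gene of these 8 lists that was called with EGFP (7.47 against 9.06, 9.45 and 9.07; 1.72 ± 0.20, SE; limma adjusted p = 0.046), and in 6 of 15 alternatives. The interaction was called for Il2ra (-2.85 ± 0.28, SE) and Tnfrsf4 (-2.62 ± 0.27, SE), both at a limma adjusted p of 0.045 and in 6 of 15 alternatives. Those 2 calls were lost without any 1 of the 5 EGFP-positive arrays other than WT replicate 2, over adjusted p of 0.011 to 0.22.

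The genes whose level most resembled each member over the 8 arrays were ranked by Pearson correlation among 1930 genes with wide spans. The arrays share their groups and normalization, and the values are a description. Pim1 was most like Traf1 (r = 0.995), Tgif1 (0.993) and Crem (0.980). Cish was most like Abhd17c (0.993), Sccpdh (0.987) and Cd44 (0.976), and Socs2 most like Tnfrsf18 (0.984), Fah (0.978) and Cc2d2a (0.977). Pim2 was most like Sema4f (0.988), Syne2 (0.970) and Mboat1 (0.962). Lower values came for Socs1, led by Cxcr5 (0.956), Gbp6 (0.952) and H2-DMa (0.932), and for Socs3, led by Hebp1 (0.929), Dbp (0.927) and 1700025G04Rik (0.874). Stat3, Stat5a, Stat5b and Stat6 had spans under 1 log2 unit and were not ranked.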

How the data were processed

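Gene expression was measured on 8 Affymetrix arrays, 1 per sample, with RNA extracted by RNEasy and labelled with biotin, per the labels' protocols. The authors deposited linear intensity per probe set, made with RMA, per the submitters' processing notes, in a version that the sources used here do not name. RMA corrects background, applies quantile normalization and summarises probes, and it compresses differences at low intensity. Array medians lay between 53.3 and 54.8, and no 2 arrays held identical values. Log2 of the authors' intensities was taken without a pseudocount. Of 45101 probe sets, 64 controls were left out and 45037 tested. The platform annotation named 1 gene symbol for 34945, several for 932 and none here for 9160; 34741 matched a current gene record. No member probe set carried a second symbol.

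A mean per group was fitted to all 8 arrays with limma 3.58.1 in R 4.3.3 (4 residual degrees of freedom, which the EGFP-positive groups supply, and 3.72 prior ones). Its two-sided p-values were adjusted by the Benjamini-Hochberg method within each comparison; the fit was tested on simulated data. The number of arrays limits precision, and exact permutation of 3 against 3 arrays allows no p below 0.1. Single EGFP-negative arrays were compared by value, with a fold of 2 as the limit. Members and lists were chosen with earlier results of these data known. Named from each list were up to 4 genes past the threshold with the largest difference or, in lists without any, the 2 of smallest p, and for each member spanning at least 1 log2 unit the 3 genes most like it. Alternatives left out arrays, filtered low values, changed normalization, variance prior, log offset (16), array weights or probe set summary, or added a block or the stress mean. Lists counted under each alternative were added after seeing the data.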

Additional observations from a re-analysis of the deposited data

How the results depend on the processing

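Of the members' differences under the alternatives, 608 kept direction and side of the threshold, 21 gained and 17 lost the call and 4 changed sign without being called in either fit. The sign changes were Socs1 between EGFP-positive groups with the stress covariate (-0.02), Socs2 there without both low-stress arrays (0.02), and, in the mean of a gene's probe sets, Stat3 (0.04) and Stat5a (-0.03) between mutant EGFP-positive and EGFP-negative cells. The cause of the changes was not tested, except that leaving out arrays also lowers the degrees of freedom. Leaving out 1 EGFP-positive array gave 3355 to 7556 probe sets called between EGFP-positive groups (5734 with all arrays), 259 to 1193 for the WT EGFP comparison (496), 4 to 84 for the mutant one (34) and 2 to 85 for the interaction (18). For member probe sets these ranges were 6 to 13 (8), 2 to 9 (4), 0 to 2 (0) and 0 to 0 (0). Without both low-stress arrays the last 3 comparisons gave 1845, 325 and 171 probe sets, of which 9, 2 and 2 were members'. The mutant EGFP comparison gave 17 probe sets above the median level, 64 with a trended prior and 61 with array weights, and 1 member probe set in each of the last 2 settings. The interaction gave 3 above the median level, 55 with a trended prior, 4 with the offset of 16 and 41 with array weights. Arrays whose title numbers start alike had correlations of deviations of 0.121, 0.046 and -0.102, against -0.153 to 0.093 for the other pairs. With 3 arrays per group these values cannot decide whether such arrays pair, and the labels do not say what the number means. With it as a block, 83, 1 and 0 probe sets were called in the WT, mutant and interaction comparisons, and 1 member probe set in the WT one; Cish was not called there (limma adjusted p = 0.063), nor Pim2 (0.17), nor Socs3 between EGFP-positive groups (0.05). Low signal limits the Socs2 probe sets under the median level and Stat3 1424272_at, and without detection calls a low level cannot be called absent.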
